A study of Mus musculus with 55 samples.

Results

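Hal, Uroc1, Amdhd1, Ftcd, Sds, Sdsl, Tat, Hpd, Tdo2 and Agxt, enzymes of histidine, serine, tyrosine, tryptophan and glyoxylate breakdown, were followed in mouse liver after deletion of Rnf43 and Znrf3. They were taken by gene symbol from both count tables of the study. All 10 genes were found among the 34490 symbols that the tables shared, and all 10 passed the filter on low counts in each of the 4 fits. RNA from whole adult liver of C57BL/6 mice was sequenced as single reads from Smart-Seq2 libraries, a full-length cDNA method. R&Zdel mice carried floxed alleles of both genes and had lost the exons for their RING domains in hepatocytes, either through an AAV8 virus with Cre under the hepatocyte TBG promoter or through tamoxifen given to mice with an Alb promoter CreERT2. R&Zflox mice, the controls, carried the same floxed alleles and received the virus without Cre or oil alone. In hepatocytes that escape Cre, and in all other liver cells, R&Zdel mice keep both genes.

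Undamaged livers were collected 1, 3 and 7 months (1M, 3M and 7M) after deletion. Other mice were given repeated CCl4, a toxin that kills pericentral hepatocytes, and then recovered for 4, 50 or 170 days (CD 4d, CD 50d and CD 170d), or had a partial hepatectomy and recovered for 7 or 21 days (PHx 7d and PHx 21d). In all, 48 libraries had a group. There were 4 R&Zdel and 4 R&Zflox libraries at 1M, 2 and 5 at 3M, 5 and 5 at 7M, 2 and 2 at CD 4d, 2 and 1 at CD 50d, 2 and 2 at CD 170d, and 3 and 3 at each PHx time. The first batch held only mice treated with tamoxifen or oil, and all CD libraries. In the second batch the 1M, 3M and PHx mice had received virus and the 7M mice tamoxifen or oil, so 1M was seen in a single batch and with a single way of deletion. By the study's account most R&Zdel mice of the longest recovery developed liver tumours, and whether the livers sequenced here held any is not given in the sources used here.

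The liver is the main site where surplus amino acids are degraded. Histidine ammonia lyase (Hal), urocanate hydratase (Uroc1), imidazolonepropionase (Amdhd1) and formiminotransferase cyclodeaminase (Ftcd) act one after another and carry histidine to glutamate, with the last step passing a carbon unit to folate. Serine dehydratase (Sds) turns serine into pyruvate for gluconeogenesis, and Sdsl is its close relative. Tyrosine aminotransferase (Tat) and 4-hydroxyphenylpyruvate dioxygenase (Hpd) are the opening steps of tyrosine breakdown, tryptophan 2,3-dioxygenase (Tdo2) opens the kynurenine route, and alanine-glyoxylate aminotransferase (Agxt) detoxifies glyoxylate in peroxisomes. Much of amino acid breakdown is known to be concentrated in periportal hepatocytes, whereas Wnt signalling, which RNF43 and ZNRF3 restrain by removing Wnt receptors from the cell surface, is strongest beside the central vein.

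The sequences before the start sites of 4 of these genes are shown because Hal, Uroc1 and Amdhd1, successive enzymes of the histidine route, were lower in R&Zdel in several comparisons, whereas Hpd was higher in R&Zdel in most libraries. Each line gives the 250 bases upstream of the RefSeq start (GRCm38.p6, which is mm10), written 5′ to 3′ along the strand of the gene. For Uroc1 and Amdhd1 this start lies inside the span that the files give the gene. Capitals mark CTTTGA or its reverse complement TCAAAG, the core of the motif bound by TCF and LEF factors, the DNA-binding partners of β-catenin.
Hal, plus strand, chr10:93488518-93488767: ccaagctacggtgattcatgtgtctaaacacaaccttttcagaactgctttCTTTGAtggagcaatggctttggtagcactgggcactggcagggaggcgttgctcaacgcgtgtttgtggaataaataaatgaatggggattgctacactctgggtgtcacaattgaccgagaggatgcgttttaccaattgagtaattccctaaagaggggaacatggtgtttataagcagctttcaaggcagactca
Uroc1, plus strand, chr6:90333039-90333288: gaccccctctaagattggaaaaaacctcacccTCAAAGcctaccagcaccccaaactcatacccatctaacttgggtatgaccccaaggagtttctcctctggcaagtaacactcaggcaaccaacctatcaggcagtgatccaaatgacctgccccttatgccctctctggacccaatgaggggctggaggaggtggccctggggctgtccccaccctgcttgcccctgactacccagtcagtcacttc
Amdhd1, minus strand, chr10:93540034-93540283: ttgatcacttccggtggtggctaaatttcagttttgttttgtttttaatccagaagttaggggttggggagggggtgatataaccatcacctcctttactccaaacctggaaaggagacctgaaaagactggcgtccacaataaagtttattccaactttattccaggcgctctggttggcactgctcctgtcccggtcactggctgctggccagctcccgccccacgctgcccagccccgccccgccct
Hpd, minus strand, chr5:123182724-123182973: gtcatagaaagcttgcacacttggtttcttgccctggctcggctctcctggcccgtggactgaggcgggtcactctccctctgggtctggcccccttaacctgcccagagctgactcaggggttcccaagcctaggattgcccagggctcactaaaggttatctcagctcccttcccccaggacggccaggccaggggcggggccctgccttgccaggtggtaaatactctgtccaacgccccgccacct
The table of promoter windows matched 8 of the 10 members. The letters were found in 3 of these 8, in Hal from position -199, in Uroc1 from position -218 and in Agxt from position -125, counted from the start site. They were also in 13.8% of all 32851 promoter windows of this length.

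Libraries held 11721687 to 38692089 counted reads (median 22982428). Values below are CPM, the reads of a gene scaled to the library's total over the shared symbols, and they were read within each batch, because the counting differed between batches. Over the whole gene, Rnf43 counts were 47.6 to 53.0 CPM in the 4 R&Zdel livers at 1M and 3.39 to 18.1 CPM in the 4 R&Zflox livers, and Znrf3 counts were 41.3 to 119 against 9.05 to 29.95 CPM. The targeted genes were thus higher, not lower, in the libraries labelled R&Zdel. Counts over a whole gene do not tell whether the RING exons were present, so they do not check the deletion. The hepatocyte list (Alb, Ttr, Apoa1, Hnf4a, Serpina1c) summed to 62099.7 to 81385 CPM in R&Zdel and 110153 to 126888 CPM in R&Zflox at 1M, and no gene of it was at 0. Alb was called lower in R&Zdel in all undamaged and PHx comparisons and at CD 50d. In 47 of 48 libraries Xist and Y-linked genes matched the listed sex. The exception was R&Zflox PHx 7d replicate 3, listed as male but with Xist and without the Y-linked genes. It entered the PHx fit, and that fit in male mice alone, as male. In bulk liver, fewer cells of a type and less RNA per cell cannot be told apart.

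Per exonic base, the members spanned a wide range in undamaged R&Zflox livers of the second batch (n = 10). Hpd was the most abundant, at 1408 ± 336 reads per kilobase of exon, scaled to the library (RPKM, mean ± SD), followed by Tdo2 at 480.1 ± 162 RPKM and Agxt at 413 ± 189 RPKM. Tat, Ftcd and Hal were at 218 ± 66.1, 194 ± 46.5 and 173 ± 37.3 RPKM, and Amdhd1, Uroc1 and Sds at 116 ± 29.7, 108 ± 20.3 and 104 ± 54.2 RPKM. Sdsl was the lowest at 14.8 ± 7.19 RPKM. From Tdo2 to Sds, neighbours in this order differed by less than the sum of their SDs. In undamaged R&Zdel livers of the same batch (n = 8), Hal had 28.97 ± 19.7 RPKM and ranked below Uroc1 (45.5 ± 8.92 RPKM) and Amdhd1 (44.3 ± 16.5 RPKM), and those neighbours also lay within their SDs.

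**Figure D1:**
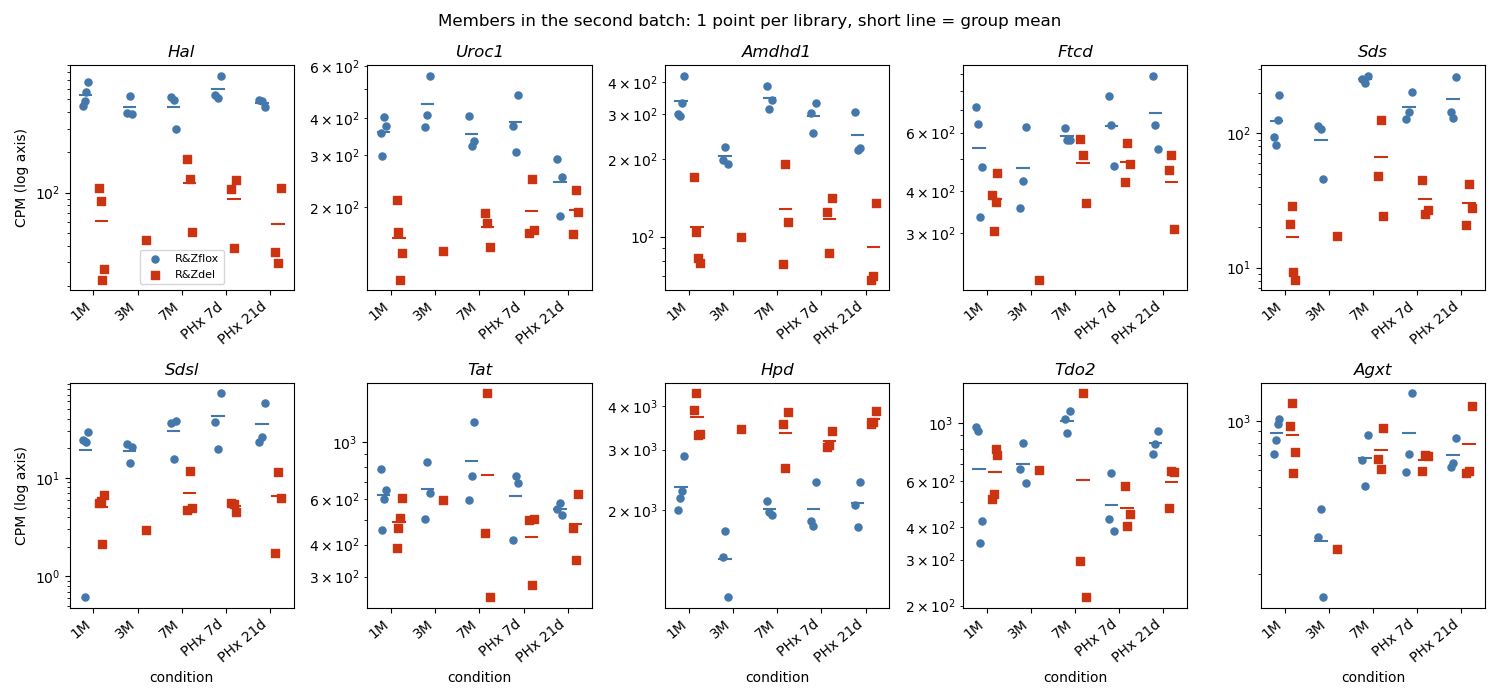
CPM (log axis) of the 10 members in the second batch for undamaged and PHx livers, with 1 point per library (circles R&Zflox, squares R&Zdel) and a short line at the mean of groups of 2 or more. Hal, Amdhd1 and Sds of R&Zdel lie below every R&Zflox library of the same condition in all 5 conditions. Hpd of R&Zdel lies above but was called in none of them. Groups held 1 to 4 libraries, and the share of all genes that separate in this way is not given.

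Hal, Sds, Amdhd1 and Uroc1 were the members called lower in undamaged R&Zdel liver, and Sdsl had log2 fold changes of similar size that were not called. A gene was called where edgeR's quasi-likelihood test gave an adjusted p under 0.1 over all genes tested and the log2 fold change exceeded 1 in size. At 1M 4 members were called, all lower in R&Zdel (Hal, Uroc1, Amdhd1, Sds), where 0.218% of all genes tested were called lower. At 3M 2 members were called lower (Hal, Uroc1), beside 0.07% of all genes. At 7M 3 members were called lower (Hal, Amdhd1, Sds), beside 0.202% of all genes. The median log2 fold change of the 10 members at 1M, 3M and 7M was -1.02, -0.93 and -0.70, where that of all genes was 0.01, -0.09 and -0.02. It was -1.9994, -0.89 and -0.47 at CD 4d, CD 50d and CD 170d and -0.85 and -0.57 at PHx 7d and PHx 21d, with medians of all genes from -0.01 to 0.06. No member was called higher at any undamaged time. Without R&Zdel 3M replicate 1, the only R&Zdel library of that time in the second batch, 0 members were called at 3M, and without R&Zdel 7M replicate 4, 5 members were called at 7M. With library totals in place of TMM factors, 67.9% of the called genes at 1M were higher in R&Zdel rather than 50%, and 41.2% at 7M rather than 55.2%, with 4 and 3 members called as before. The median over all genes at 1M was then 0.19.

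Whether the genotype difference changed with time was tested by interaction terms. For 3M against 1M, 7M against 1M and 7M against 3M, the share of all genes with an adjusted p under 0.1 was 0%, 0% and 0%, and no member passed. At an unadjusted p under 0.05, 0, 2 and 1 members passed. Over all interactions of the study, DESeq2 listed 11 cases of a member where edgeR listed 6. The interaction of Hal for 7M against 1M was 1.45 ± 0.51 (log2 ± SE), with adjusted p = 0.699. The 7M libraries of the second batch share their batch with the 1M libraries but not the way of deletion, so time and way of deletion cannot be told apart between 1M and 7M.

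**Figure D2:**
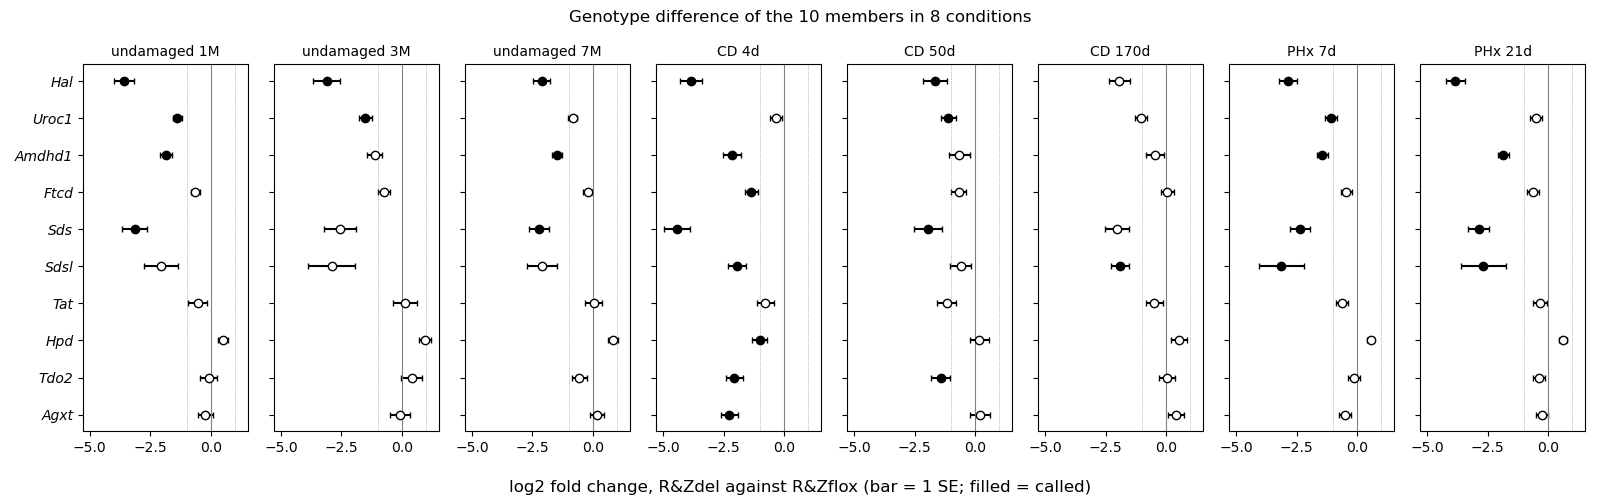
Log2 fold change of R&Zdel against R&Zflox for the 10 members in the 8 conditions, where bars are 1 SE of the fit, filled points were called and dotted lines mark a log2 fold change of 1 in size. Hal and Sds lie below -1 in all 8 conditions, and Hpd lies above 0 in 7 of 8.

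Hal showed the steepest difference of the histidine route. The gene lies on the plus strand at chr10:93488768-93516761 (mm10). At 1M Hal was 109, 85.8, 22.2 and 26.7 CPM in R&Zdel and 449.5, 489, 564 and 671 CPM in R&Zflox. The highest R&Zdel liver was well below the lowest R&Zflox liver, and Hal was 11.9-fold lower (log2 fold change -3.58 ± 0.41, adjusted p = 5.13e-05). At 3M the second batch had 44.3 CPM in R&Zdel and 393, 527 and 388 CPM in R&Zflox, and the first batch 78.0 CPM in R&Zdel and 295 and 316 CPM in R&Zflox. At 7M Hal was 178, 127 and 50.9 CPM in R&Zdel and 524, 497 and 302 CPM in R&Zflox in the second batch and 31.3 and 66.3 CPM in R&Zdel and 446 and 294 CPM in R&Zflox in the first. The genotypes did not overlap in either batch, and the log2 fold change was -3.11 ± 0.55 at 3M (adjusted p = 0.0109) and -2.12 ± 0.35 at 7M (adjusted p = 0.00226). Within the second batch it was -3.30 at 3M and -1.85 at 7M, and within the first batch -1.24 (adjusted p = 0.956) and -3.27 (adjusted p = 0.0684). The R&Zdel 3M library of the first batch was the only female of its group, so the value there also carries the sex term.

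After hepatectomy Hal kept this direction. For PHx the fold threshold stayed, but the p needed for a call was the unadjusted one, under 0.05, and the adjusted p is given beside it. At PHx 7d Hal was 106, 38.5 and 123 CPM in R&Zdel and 538, 508 and 755 CPM in R&Zflox, and at PHx 21d it was 35.8, 29.5 and 109 CPM in R&Zdel and 494, 485 and 442 CPM in R&Zflox. The R&Zdel PHx 21d liver with 109 CPM, replicate 3, was listed as female and all other PHx livers as male. Log2 fold changes at PHx 21d thus also carry the sex term. All R&Zdel livers were below all R&Zflox livers at both times, with log2 fold changes of -2.86 ± 0.36 (adjusted p = 0.000704) and -3.83 ± 0.39 (adjusted p = 9.44e-06). At CD 4d Hal was 54.2 and 45.8 CPM in R&Zdel and 534 and 486 CPM in R&Zflox, at CD 50d 131 and 68.2 CPM in R&Zdel and 282 CPM in R&Zflox, and at CD 170d 103 and 88.3 CPM in R&Zdel and 221 and 408 CPM in R&Zflox. Here too the genotypes did not overlap. The log2 fold change was -3.85 ± 0.46 at CD 4d (adjusted p = 0.00187) and -1.66 ± 0.48 at CD 50d (adjusted p = 0.0955). At CD 170d it was -1.93 ± 0.42 and missed the threshold (adjusted p = 0.132).

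Amdhd1, the third enzyme of the route, is the neighbour of Hal on the minus strand at chr10:93523338-93540111, with 6576 bases between the genes and their 3′ ends facing. At 1M Amdhd1 was 170.3, 104, 82.8 and 78.9 CPM in R&Zdel and 299.6, 296, 333 and 424 CPM in R&Zflox. The groups were separate, with a log2 fold change of -1.85 ± 0.25 (adjusted p = 0.00025). At 3M the second batch had 99.7 CPM in R&Zdel and 199.5, 223 and 192 CPM in R&Zflox and the first 148 CPM in R&Zdel and 252 and 227 CPM in R&Zflox. R&Zdel was again lower in both batches, but the log2 fold change of -1.13 ± 0.32 was not called (adjusted p = 0.266). At 7M Amdhd1 was 78.4, 191 and 114 CPM in R&Zdel and 385, 315 and 342 CPM in R&Zflox in the second batch, and 62.2 and 91.1 CPM in R&Zdel and 270.3 and 364 CPM in R&Zflox in the first. The difference of -1.48 ± 0.22 at 7M was called (adjusted p = 0.001), and in the first batch alone it was -1.89 with adjusted p = 0.122. At PHx 7d Amdhd1 was 124, 86.1 and 141 CPM in R&Zdel and 303, 253 and 332 CPM in R&Zflox (log2 fold change -1.43 ± 0.22, adjusted p = 0.0042). At PHx 21d it was 67.9, 69.9 and 135 CPM in R&Zdel and 304, 217 and 221 CPM in R&Zflox (log2 fold change -1.85 ± 0.24, adjusted p = 0.000296).

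After CCl4 Amdhd1 was called at CD 4d alone, but the interaction test did not pass for a change of its genotype difference between the CCl4 times. At CD 4d it was 86.1 and 108 CPM in R&Zdel and 292 and 311 CPM in R&Zflox (log2 fold change -2.15 ± 0.37, adjusted p = 0.00733). At CD 50d it was 168 and 128 CPM in R&Zdel and 201 CPM in R&Zflox, with no call (log2 fold change -0.65 ± 0.43, adjusted p = 0.395). By CD 170d, Amdhd1 was 155 and 139 CPM in R&Zdel and 107 and 243 CPM in R&Zflox, so both R&Zdel livers lay between the R&Zflox livers. The log2 fold change there was -0.46 ± 0.36 and changed sign, to 0.25, without R&Zflox CD 170d replicate 2.

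Uroc1, the second enzyme of the route, lies on the plus strand at chr6:90333239-90364551. At 1M Uroc1 was 212, 164, 114 and 140.1 CPM in R&Zdel and 357, 297, 402 and 377 CPM in R&Zflox. Without overlap of the groups, it was lower by a log2 fold change of -1.39 ± 0.19 (adjusted p = 0.000269). At 3M it was 142 CPM in R&Zdel and 373, 409 and 557 CPM in R&Zflox in the second batch and 90.7 CPM in R&Zdel and 151 and 195 CPM in R&Zflox in the first (log2 fold change -1.51 ± 0.25, adjusted p = 0.00577). At 7M it was 191, 177 and 147 CPM in R&Zdel and 406, 321 and 336 CPM in R&Zflox in the second batch and 110.5 and 89.2 CPM in R&Zdel and 189 and 182 CPM in R&Zflox in the first. The groups of either batch stayed apart at 7M, but the log2 fold change of -0.84 ± 0.17 was under the fold threshold (adjusted p = 0.0183). At PHx 7d Uroc1 was 164, 249.5 and 168 CPM in R&Zdel and 377, 307 and 481 CPM in R&Zflox (log2 fold change -1.09 ± 0.25, unadjusted p = 0.000347, adjusted p = 0.0993). Leaving out R&Zdel PHx 7d replicate 1 or 3, or R&Zflox PHx 7d replicate 3, took it to -0.99, -0.96 and -0.90, under the threshold each time. At PHx 21d the groups overlapped, at 162, 229 and 193 CPM in R&Zdel and 290.3, 186 and 253 CPM in R&Zflox (log2 fold change -0.51 ± 0.26, adjusted p = 0.589).

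Uroc1 stood apart from the other histidine genes at CD 4d, where it was 198 and 165 CPM in R&Zdel and 170.0 and 152 CPM in R&Zflox. Its log2 fold change there was -0.33 ± 0.25 (adjusted p = 0.381), and with library totals in place of TMM factors its sign turned to 0.18 (adjusted p = 0.507). At CD 50d Uroc1 was 105 and 96.6 CPM in R&Zdel and 187 CPM in R&Zflox (log2 fold change -1.10 ± 0.30, adjusted p = 0.0854). At CD 170d it was 126 and 87.7 CPM in R&Zdel and 197 and 183 CPM in R&Zflox, both R&Zdel livers being lower, without a call (log2 fold change -1.04 ± 0.25, adjusted p = 0.176).

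Ftcd, the enzyme that closes the route, differed less. It lies on the plus strand at chr10:76575648-76590338. At 1M Ftcd was 389, 304, 372 and 455 CPM in R&Zdel and 716, 637, 335 and 472 CPM in R&Zflox, with overlap of the groups (log2 fold change -0.65 ± 0.19, adjusted p = 0.228). The other undamaged and PHx comparisons gave log2 fold changes of -0.73 at 3M, -0.23 at 7M, -0.44 at PHx 7d and -0.63 at PHx 21d, none of them called. Only CD 4d gave a call for Ftcd, at 311 and 289 CPM in R&Zdel and 593 and 486 CPM in R&Zflox (log2 fold change -1.35 ± 0.26, adjusted p = 0.0112). With library totals that difference was -0.84 and under the fold threshold. At CD 50d and CD 170d the log2 fold changes were -0.67 and 0.05.

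Sds, like Hal, lay below a log2 fold change of -1 in all 8 conditions. It lies on the plus strand at chr5:120476547-120483932, and 40 bases (2.72%) of its exons overlap those of Plbd2, which counting without strand cannot separate. At 1M Sds was 21.1, 28.6, 9.23 and 8.13 CPM in R&Zdel and 93.7, 81.5, 125 and 194 CPM in R&Zflox. No R&Zdel liver reached the R&Zflox range, and Sds was 8.91-fold lower (log2 fold change -3.16 ± 0.50, adjusted p = 0.00138). In male mice alone the log2 fold change was -3.46 and missed the threshold (adjusted p = 0.106). At 3M it was 17.1 CPM in R&Zdel and 113, 108 and 45.9 CPM in R&Zflox in the second batch and 36.8 CPM in R&Zdel and 131 and 125 CPM in R&Zflox in the first. One R&Zflox liver, replicate 5, was far below the others, and the difference of -2.55 ± 0.66 was not called (adjusted p = 0.22) but was without that liver (log2 fold change -2.79, adjusted p = 0.082). At 7M Sds was 48.2, 126 and 24.1 CPM in R&Zdel and 256, 236 and 269.7 CPM in R&Zflox in the second batch and 12.0 and 40.4 CPM in R&Zdel and 293 and 178 CPM in R&Zflox in the first. R&Zdel was lower in both (log2 fold change -2.23 ± 0.43, adjusted p = 0.0116), although neither batch alone passed, at -1.93 (adjusted p = 0.145) and -3.57 (adjusted p = 0.122).

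Sds was also lower after hepatectomy and CCl4. At PHx 7d it was 44.9, 25.1 and 26.7 CPM in R&Zdel and 128, 143 and 202 CPM in R&Zflox, and at PHx 21d 20.6, 42.3 and 27.8 CPM in R&Zdel and 144, 131 and 262 CPM in R&Zflox. The groups stayed apart, with log2 fold changes of -2.37 ± 0.41 (adjusted p = 0.00885) and -2.87 ± 0.43 (adjusted p = 0.0016). At CD 4d Sds was 13.6 and 26.9 CPM in R&Zdel and 304 and 296 CPM in R&Zflox, the largest difference of any member in any comparison, 21.4-fold (log2 fold change -4.42 ± 0.55, adjusted p = 0.00226). At CD 50d it was 106 and 49.5 CPM in R&Zdel and 268 CPM in R&Zflox (log2 fold change -1.95 ± 0.56, adjusted p = 0.0955). At CD 170d it was 67.6 and 59.4 CPM in R&Zdel and 307 and 145 CPM in R&Zflox, again lower in both R&Zdel livers, without a call (log2 fold change -2.04 ± 0.50, adjusted p = 0.177).

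Sdsl, which stands head to head with Sds at chr5:120458193-120472825 on the minus strand, 3721 bases away, had few reads. At 1M it was 5.50, 5.76, 2.16 and 6.67 CPM in R&Zdel and 24.0, 0.612, 23.3 and 28.9 CPM in R&Zflox. R&Zflox replicate 2 had almost no Sdsl reads and was below every R&Zdel liver, and the difference of -2.07 ± 0.70 was not called (adjusted p = 0.3). Without that library it was -2.52 and called (adjusted p = 0.0415). At 3M Sdsl was 2.93 CPM in R&Zdel and 22.1, 14.2 and 20.4 CPM in R&Zflox in the second batch and 2.91 CPM in R&Zdel and 20.1 and 16.3 CPM in R&Zflox in the first, and at 7M 4.71, 11.6 and 4.94 CPM in R&Zdel and 35.7, 15.5 and 37.8 CPM in R&Zflox in the second and 1.21 and 6.04 CPM in R&Zdel and 24.0 and 18.1 CPM in R&Zflox in the first. All R&Zdel livers were lower within each batch, yet the log2 fold changes of -2.89 ± 0.97 and -2.11 ± 0.62 did not pass (adjusted p = 0.43 and 0.235). At PHx 7d it was 5.58, 5.46 and 4.52 CPM in R&Zdel and 36.5, 19.5 and 72.2 CPM in R&Zflox and at PHx 21d 1.73, 11.6 and 6.31 CPM in R&Zdel and 23.05, 26.1 and 57.5 CPM in R&Zflox. These passed at the unadjusted p alone, 0.00325 and 0.00917, with log2 fold changes of -3.13 ± 0.94 and -2.69 ± 0.93 (adjusted p = 0.363 and 0.401). At CD 50d Sdsl was 18.3 and 8.80 CPM in R&Zdel and 18.4 CPM in R&Zflox, without a call (log2 fold change -0.60 ± 0.43). In the other CCl4 groups Sdsl was 13.4 and 15.1 CPM in R&Zdel and 37.6 and 39.6 CPM in R&Zflox at CD 4d (log2 fold change -1.95 ± 0.37, adjusted p = 0.00981) and 7.12 and 6.63 CPM in R&Zdel and 23.4 and 20.6 CPM in R&Zflox at CD 170d (log2 fold change -1.89 ± 0.37, adjusted p = 0.0897). It was the only member called at CD 170d, and the call was lost without either R&Zdel library (adjusted p = 0.328 without replicate 1 and 0.605 without replicate 2) or without R&Zflox replicate 1 (adjusted p = 0.208).

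Hpd, the second enzyme of tyrosine breakdown, went the other way. It lies on the minus strand at chr5:123171807-123182723. At 1M Hpd was 3913, 4366, 3297 and 3337 CPM in R&Zdel and 2012, 2167, 2272 and 2876 CPM in R&Zflox. Every R&Zdel liver was above every R&Zflox liver, with a log2 fold change of 0.49 ± 0.21 that did not pass (adjusted p = 0.546). At 3M it was 3447 CPM in R&Zdel and 1471, 1748 and 1120.4 CPM in R&Zflox in the second batch and 4637 CPM in R&Zdel and 2301 and 3026 CPM in R&Zflox in the first, and at 7M 3559.7, 2651 and 3866 CPM in R&Zdel and 2125, 1986 and 1939 CPM in R&Zflox in the second and 5146 and 4845 CPM in R&Zdel and 3368 and 2885 CPM in R&Zflox in the first. The genotypes were separate within each batch, at log2 fold changes of 0.95 ± 0.25 (adjusted p = 0.22) and 0.83 ± 0.19 (adjusted p = 0.0575). The 7M value passed the adjusted p and missed the fold threshold. At PHx 7d Hpd was 3059, 3092 and 3392 CPM in R&Zdel and 1859, 1803 and 2414 CPM in R&Zflox and at PHx 21d 3559, 3597 and 3869.7 CPM in R&Zdel and 2075, 1797 and 2419 CPM in R&Zflox. Again no library overlapped, with log2 fold changes of 0.56 ± 0.15 and 0.62 ± 0.16 (unadjusted p = 0.00166 and 0.000865, adjusted p = 0.247 and 0.16), both under the fold threshold.

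At CD 4d the sign of Hpd was the opposite, with 1319 and 1037 CPM in R&Zdel and 1906 and 1472 CPM in R&Zflox (log2 fold change -1.01 ± 0.32, adjusted p = 0.0573). That call was near both thresholds. It was lost with library totals (-0.51, adjusted p = 0.12) and without R&Zdel replicate 2, R&Zflox replicate 1 or R&Zflox replicate 2 (adjusted p = 0.267, 0.273 and 0.105). At CD 50d Hpd was 3762 and 3030.0 CPM in R&Zdel and 2629 CPM in R&Zflox and at CD 170d 3808 and 4546 CPM in R&Zdel and 2186 and 2788 CPM in R&Zflox. All R&Zdel livers were above the R&Zflox livers at both times, with log2 fold changes of 0.17 ± 0.39 and 0.54 ± 0.32 (adjusted p = 0.835 and 0.698). With its single R&Zflox library, CD 50d gave -0.22 when R&Zdel replicate 1 was left out.

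Tat, the enzyme just before Hpd, was not called in any genotype comparison as fitted. It lies on the plus strand at chr8:109986078-109999804, and 144 bases (4.48%) of its exons overlap Gm45795. At 1M Tat was 388, 465, 508 and 606 CPM in R&Zdel and 786, 456, 601 and 652 CPM in R&Zflox. The second batch at 7M showed how widely it varied, with 446, 1554 and 249 CPM in R&Zdel and 599, 738 and 1204 CPM in R&Zflox, where R&Zdel replicate 4 was the highest of all. Its log2 fold change ranged over the undamaged and PHx comparisons from -0.62 at PHx 7d to 0.14 at 3M, and at 7M it was 0.03 ± 0.36, or -0.47 without R&Zdel replicate 4. At CD 4d, CD 50d and CD 170d it was -0.77 ± 0.34, -1.17 ± 0.40 and -0.49 ± 0.34 (adjusted p = 0.14, 0.132 and 0.769). At CD 50d Tat was called by 4 alternatives, with adjusted p = 0.00863 without a filter on low counts, 0.0463 by DESeq2, 0.069 by the likelihood ratio test and 0.056 with the R&Zflox CD 170d libraries joined to CD 50d.

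Tdo2, on the minus strand at chr3:81958412-81975728, was not called in undamaged liver. At 1M it was 515, 538, 796 and 759 CPM in R&Zdel and 967, 934, 346 and 423 CPM in R&Zflox, and the lower pair of R&Zflox values, replicates 3 and 4, came from the females of that group. At 7M it was 297, 1305 and 215 CPM in R&Zdel and 1035, 922 and 1120.4 CPM in R&Zflox in the second batch and 1027 and 707.2 CPM in R&Zdel and 1234 and 441 CPM in R&Zflox in the first. The first batch overlapped, with both R&Zdel livers between the R&Zflox livers. In the second batch R&Zdel replicate 4 was again the highest, the other two R&Zdel livers were below all R&Zflox livers, and without replicate 4 the log2 fold change went from -0.56 ± 0.31 (adjusted p = 0.627) to -1.08 and was called (adjusted p = 0.0504). In the remaining undamaged and PHx comparisons the log2 fold change of Tdo2 was -0.09 at 1M, 0.40 at 3M, -0.12 at PHx 7d and -0.38 at PHx 21d. After CCl4 it was called lower at CD 4d, at 362 and 253 CPM in R&Zdel and 986 and 829 CPM in R&Zflox (log2 fold change -2.05 ± 0.34, adjusted p = 0.00627), and at CD 50d, at 431 and 660.5 CPM in R&Zdel and 1218 CPM in R&Zflox (log2 fold change -1.42 ± 0.39, adjusted p = 0.0886). By CD 170d Tdo2 was 733 and 729 CPM in R&Zdel and 418 and 805 CPM in R&Zflox, with R&Zdel between the R&Zflox livers (log2 fold change 0.05 ± 0.33).

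Agxt, on the plus strand at chr1:93135240-93145421, was not called in undamaged liver either, with 955, 1215, 579 and 728 CPM in R&Zdel and 710.3, 820.0, 978 and 1023 CPM in R&Zflox at 1M. The groups overlapped widely (log2 fold change -0.23 ± 0.31). At 3M, 7M, PHx 7d and PHx 21d its log2 fold change was -0.09 ± 0.40, 0.17 ± 0.28, -0.50 ± 0.23 and -0.26 ± 0.24, none called. At CD 4d Agxt was 238 and 301 CPM in R&Zdel and 834 and 973 CPM in R&Zflox and was 4.77-fold lower in R&Zdel (log2 fold change -2.26 ± 0.34, adjusted p = 0.00453). At CD 50d it was 831 and 568 CPM in R&Zdel and 536 CPM in R&Zflox and at CD 170d 710.4 and 857 CPM in R&Zdel and 394 and 627 CPM in R&Zflox. R&Zdel was then above R&Zflox in all libraries, without a call (log2 fold change 0.20 ± 0.40 and 0.41 ± 0.33). CD 50d had a single R&Zflox library, and without R&Zdel replicate 1 the sign there turned, to -0.35.

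**Figure D3:**
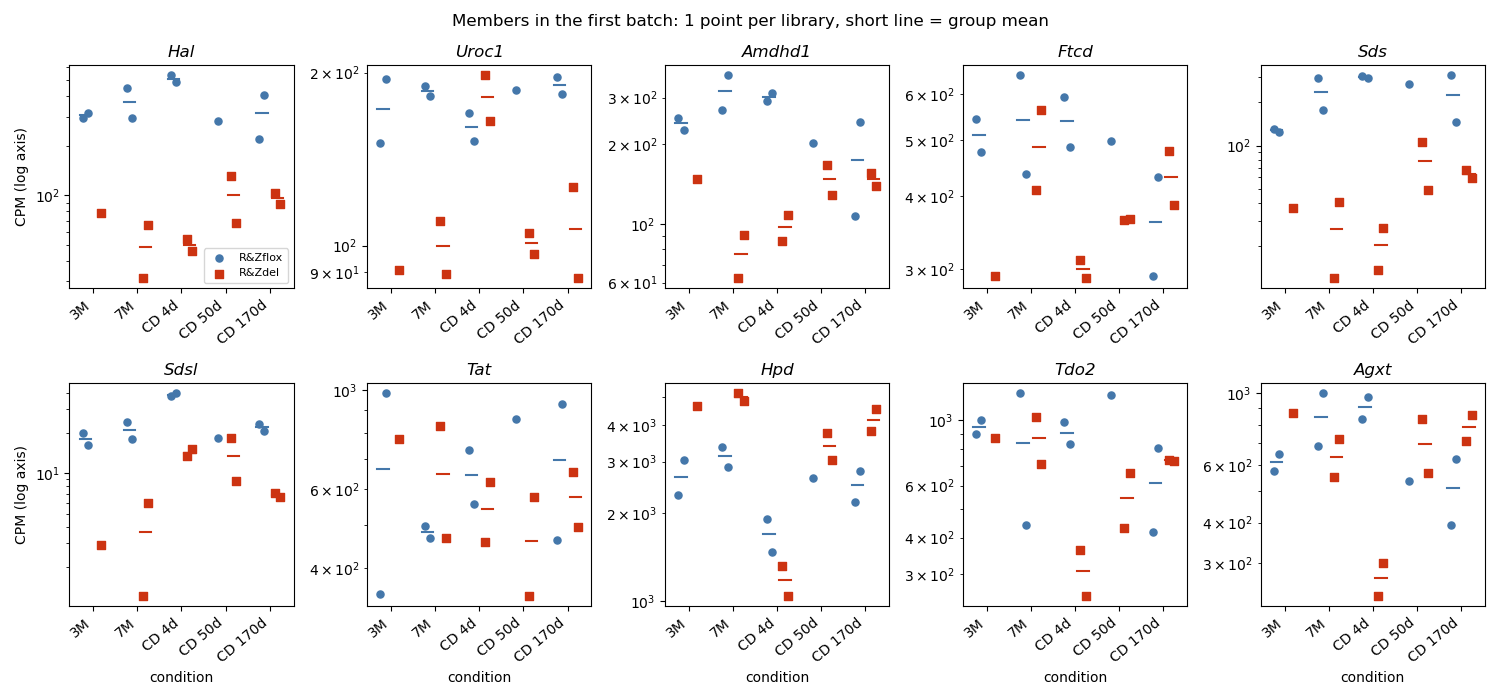
CPM (log axis) of the 10 members in the first batch, where all mice had received tamoxifen or oil, for undamaged livers and for livers after CCl4, with 1 point per library and a short line at the mean of groups of 2. Hpd, Tdo2 and Agxt of R&Zdel are lowest at CD 4d and lie higher at CD 170d, whereas Hal and Sds of R&Zdel stay below R&Zflox at every time.

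Counted over the damage conditions, the calls were all toward lower values in R&Zdel. At CD 4d 8 of 10 members were called lower, all but Uroc1 and Tat, beside 4.95% of all genes. The fit then called 67.5% of its genes higher in R&Zdel, and with library totals in place of TMM factors 93.4%, 6 members remained called and the median over all genes moved from 0.06 to 0.57, so that differences at CD 4d are relative to that shift. At CD 50d 4 members were called lower (Hal, Uroc1, Sds, Tdo2), beside 2.94% of all genes. This rested on a single R&Zflox library and on both R&Zdel libraries, since 1 member was called without R&Zdel replicate 1 and 0 without R&Zdel replicate 2. The replicate block gave 0 members at CD 50d, and library totals also 0, with 79.9% of called genes higher rather than 47.3% and a median over all genes of 0.26. At CD 170d 1 member was called lower, beside 0.211% of all genes, and leaving out a library gave 0 (either R&Zdel library) to 2 (R&Zflox replicate 2). Hal, Uroc1 and Sds were called there, with Sdsl, without a filter on low counts, by DESeq2 and by the likelihood ratio test. With library totals the median over all genes at CD 170d was 0.21.

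At PHx 7d 5 members were called lower (Hal, Uroc1, Amdhd1, Sds, Sdsl), beside 2.33% of all genes, and 4 of them with an adjusted p under 0.1, beside 0.149%. At PHx 21d 4 were called lower (Hal, Amdhd1, Sds, Sdsl), beside 3.52% of all genes, and 3 with an adjusted p under 0.1, beside 0.18%. With library totals 51.9% of called genes were higher at PHx 7d rather than 41.8%, and 57.4% at PHx 21d rather than 46.4%, with 5 and 4 members as before. The PHx comparisons shared their fit with the 1M livers. The genotype difference at PHx 7d against 1M, PHx 21d against 1M and PHx 21d against PHx 7d changed for 0%, 0% and 0% of all genes and for no member, with 0, 1 and 0 members at an unadjusted p under 0.05.

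Which genotype moved at CD 4d was read within the first batch, against undamaged livers of 3M and 7M together. In R&Zdel 6 members were called lower (Hal, Ftcd, Sds, Hpd, Tdo2, Agxt), beside 11.2% of all genes called lower. Tdo2 fell by 2.95 ± 0.42 on the log2 scale (adjusted p = 0.000963) and Hpd by 2.86 ± 0.39 (adjusted p = 0.000762). Hpd was 1319 and 1037 CPM at CD 4d and 4637 CPM at 3M and 5146 and 4845 CPM at 7M. Tdo2 was 362 and 253 CPM at CD 4d against 867 CPM at 3M and 1027 and 707.2 CPM at 7M, and Agxt 238 and 301 CPM against 869 CPM and 552 and 724 CPM. For these 3 genes the CD 4d livers lay below all undamaged R&Zdel livers. Hal was 54.2 and 45.8 CPM at CD 4d, inside the undamaged values of 78.0 CPM at 3M and 31.3 and 66.3 CPM at 7M. Sds was likewise 13.6 and 26.9 CPM against 36.8 CPM and 12.0 and 40.4 CPM, and Ftcd 311 and 289 CPM against 292 CPM and 410.1 and 562 CPM. The calls of Hal, Sds and Ftcd thus came from libraries that overlapped in CPM. The log2 fold changes of Agxt, Sds, Ftcd and Hal were -1.92 ± 0.38, -1.71 ± 0.66, -1.33 ± 0.30 and -1.31 ± 0.51. Sdsl and Uroc1 had positive values, 1.21 ± 0.61 and 0.18 ± 0.32, which did not pass. In R&Zflox at CD 4d no member was called, beside 5.09% of all genes, and Hpd alone had an unadjusted p under 0.05 (log2 fold change -0.94 ± 0.30, adjusted p = 0.111). Over all 6 such comparisons after CCl4 7 calls of members were made. With library totals 4 were made, and without R&Zdel CD 4d replicate 1 also 4. The first batch had no male R&Zdel 3M liver. In male mice alone the R&Zdel comparisons at CD 4d and CD 50d, which held all 7 calls, could therefore not be run. The remaining comparisons gave 0 calls in male mice alone. The undamaged livers were collected at other times after deletion than the CD 4d livers. The undamaged R&Zdel 3M liver and an undamaged R&Zflox 7M liver were female and the CD 4d livers male, so these log2 fold changes also carry the sex term.

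At the later times fewer members differed from undamaged liver. Against undamaged 3M livers, R&Zdel at CD 50d had Tdo2 alone called lower (log2 fold change -2.66 ± 0.63, adjusted p = 0.0861), beside 1.8% of all genes. Tdo2 was 431 and 660.5 CPM in the R&Zdel CD 50d livers, all male, and 867 CPM in the single undamaged R&Zdel 3M library of that batch. That library was female, so the log2 fold change also carries the sex term, and it exceeds the difference seen in CPM. R&Zflox at CD 50d had no member called, with 0.00793% of all genes. Against undamaged 7M livers, CD 170d gave no member in either genotype, and 0% of all genes in R&Zdel and 0% in R&Zflox, with 2 members in each at an unadjusted p under 0.05. DESeq2 made 8 calls of members over the 6 comparisons after CCl4. The genotype difference at CD 170d against that at 7M changed for 0% of all genes. After hepatectomy no member was called against the 1M livers, beside 0.0157% (R&Zdel) and 0.0235% (R&Zflox) of all genes at PHx 7d and 0% and 0% at PHx 21d. In these PHx comparisons 4, 2, 1 and 1 members had an unadjusted p under 0.05, and DESeq2 called 3 members over the 4.

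The genotype difference of several members changed between CD 4d and the later times. From CD 4d to CD 170d, the interaction passed for 5 members, beside 7.66% of all genes, all with R&Zdel rising relative to R&Zflox. They were Agxt (2.66 ± 0.47, adjusted p = 0.0262), Tdo2 (2.10 ± 0.47, adjusted p = 0.0487), Ftcd (1.40 ± 0.37, adjusted p = 0.0751), Sds (2.37 ± 0.69, adjusted p = 0.0955) and Hpd (1.55 ± 0.45, adjusted p = 0.0973). From CD 4d to CD 50d it passed for Agxt alone (2.45 ± 0.54, adjusted p = 0.0938), beside 1.5% of all genes. From CD 50d to CD 170d no gene passed (0%), and 1 member had an unadjusted p under 0.05. Uroc1 had the opposite sign, with -0.71 ± 0.35 from CD 4d to CD 170d (adjusted p = 0.262). These 6 calls depended on single libraries. Without 1 library of the CD fit they numbered 2 (R&Zdel CD 4d replicate 1), 1 (R&Zdel CD 4d replicate 2, R&Zdel CD 170d replicate 1 or R&Zflox CD 4d replicate 2), 0 (R&Zdel CD 170d replicate 2 or R&Zflox CD 4d replicate 1) or 11 (R&Zdel CD 50d replicate 2).

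Markers of other cell types moved with CD 4d. The cholangiocyte list (Krt19, Krt7, Epcam, Sox9, Spp1) summed to 3632 to 6473 CPM in R&Zdel and 89.1 to 161 CPM in R&Zflox, and all 5 genes were called higher. The stellate and fibroblast list (Des, Lrat, Col1a1, Col1a2, Acta2) summed to 123 to 383 against 33.2 to 47.8 CPM, with 2 of 5 genes called higher, and the hepatocyte list to 74419 to 91786 against 95249 to 97244 CPM. No gene of these lists was at 0 in every library of a CD 4d group. At CD 50d the cholangiocyte sums were 595 to 1175 CPM in R&Zdel and 103 CPM in R&Zflox, and at CD 170d 253 to 303 and 57.8 to 252 CPM. In undamaged livers of the first batch at 7M they were 59.9 to 152 and 87.7 to 119.9 CPM. Among the remaining lists at CD 4d, Marco of the macrophage list, Lyve1 of the endothelial list and Serpina1c of the hepatocyte list were called lower. At PHx 21d Krt19, Epcam and Spp1 were lower and Krt7 higher by the unadjusted rule, with cholangiocyte sums of 24.7 to 69.3 CPM in R&Zdel and 52.6 to 157 CPM in R&Zflox. The part of these markers in the CCl4 and PHx results was not tested.

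Few of the remaining genes of the same pathways were called by genotype in undamaged liver. In simulated data the rule recovered 43.5%, 25.5% and 53% of the genes given a fixed change, larger than the fold threshold, at 1M, 3M and 7M. Genes of the lowest expression were given no change, and smaller changes were not simulated. Genes without a call may therefore still differ. Of the other tyrosine genes Qdpr, Pcbd1, Hgd, Gstz1 and Fah 0 of 5 were called at 1M, 3M or 7M, of the other tryptophan genes 0 of 7, of the folate carbon-transfer genes 0 of 4, and of the serine, glycine and glyoxylate genes 0 of 10 at 1M and 3M and 1 of 10 at 7M. This was Gldc, the decarboxylase of the glycine cleavage system, which was lower in R&Zdel (log2 fold change -2.26 ± 0.56, adjusted p = 0.0903). Gldc was also called lower at PHx 7d (-1.07 ± 0.51, adjusted p = 0.817) and PHx 21d (-1.55 ± 0.53, adjusted p = 0.391) by the unadjusted rule. At CD 4d 8 of these genes were called lower and 0 higher, beside 4.95% of all genes called lower. These were Qdpr, which regenerates the cofactor tetrahydrobiopterin, Haao and Qprt of the kynurenine to NAD route, Gldc and Amt of glycine cleavage, the glyoxylate enzymes Grhpr and Hao1, and Aldh1l1 of folate metabolism, with log2 fold changes from -1.06 ± 0.32 (Amt) to -1.96 ± 0.63 (Gldc). At CD 50d Aadat, Shmt1 and Hao1 were called lower (-1.07, -1.01 and -1.29), beside 2.94% of all genes, and at CD 170d none.

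In R&Zdel at CD 4d against undamaged liver, genes of the wider pathways were called lower too, beside 11.2% of all genes. Called lower were 4 of 5 tyrosine genes (Qdpr, Hgd, Gstz1, Fah), 5 of 7 tryptophan genes (Afmid, Kmo, Haao, Qprt, Aadat), 5 of 11 serine, glycine and glyoxylate genes (Shmt1, Shmt2, Grhpr, Hao1, Srr) and 2 of 4 folate genes (Mthfd1, Aldh1l1), while the folate gene Mthfd1l was called higher (3.83 ± 1.02). Their log2 fold changes ran from -1.11 ± 0.30 (Mthfd1) to -2.19 ± 0.25 (Aadat) among those lower. In R&Zflox 0 of 5, 1 of 7, 0 of 11 and 0 of 4 were called lower, beside 5.09% of all genes called in either direction. Mthfd1l was called higher there too (3.09 ± 0.84, adjusted p = 0.0726). It had few reads, with means of 3.97 CPM at CD 4d and 0.557 CPM undamaged in R&Zdel, and 1.02 and 0.181 CPM in R&Zflox. The log2 fold changes against undamaged liver also carry the sex term. Of 8 genes that respond to fasting or glucocorticoids, which also induce Tat, Tdo2 and Sds, 0 were called in undamaged liver. At CD 4d Pck1, G6pc and Igfbp1 were lower in R&Zdel (-1.63 ± 0.50, -3.28 ± 0.51 and -2.28 ± 0.68) and Per1 higher (2.86 ± 0.63). At PHx 7d Pck1 and Per1 were called lower (-1.99 ± 0.37 and -5.21 ± 1.93) by the unadjusted rule. Feeding state at collection is not given in the sources used here.

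Genes of known position in the lobule changed beside the members. At 1M the pericentral genes Glul (glutamine synthetase), Cyp2e1, Cyp1a2 and Slc1a2 were called higher in R&Zdel, at log2 fold changes of 2.32 ± 0.36, 1.05 ± 0.17, 1.25 ± 0.19 and 2.46 ± 0.30, while Oat at 1.22 ± 0.44 was not called. The periportal genes Cyp2f2, Hsd17b13, Gls2 and Arg1 were called lower, at -3.67 ± 0.40, -2.60 ± 0.42, -2.06 ± 0.30 and -1.64 ± 0.37, and Pck1 at -0.26 ± 0.50 was not. Hal and Sds thus fell by amounts between those of Gls2 and Cyp2f2. At CD 4d all 5 periportal genes were called lower, Cyp2f2 with a log2 fold change of -7.27 ± 0.91, whereas Glul, Cyp2e1 and Cyp1a2 were at 0.17 ± 0.48, -0.07 ± 0.31 and -0.12 ± 0.42, none called, and Oat and Slc1a2 were called higher. The pericentral list summed to 2964 to 4196 CPM in R&Zdel and 2169.7 to 2941 CPM in R&Zflox at CD 4d, against 24679.6 to 33809.6 and 11480.5 to 11668 CPM at 7M in the same batch.

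**Figure D4:**
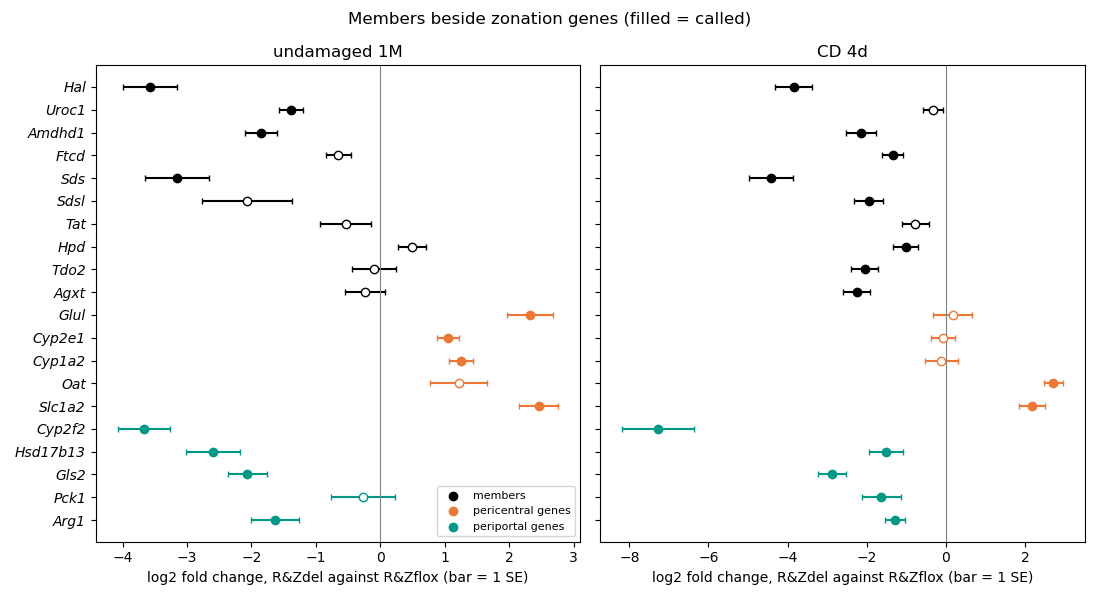
Log2 fold change of R&Zdel against R&Zflox at 1M (left) and CD 4d (right) for the 10 members (black), 5 pericentral genes (orange) and 5 periportal genes (green), with bars of 1 SE and filled points for called genes. At 1M Hal and Sds lie among the periportal genes and Hpd lies on the side of the pericentral genes, and at CD 4d all 10 members lie below 0.

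Across the 30 libraries of the second batch, the genes whose log2 CPM followed Hal most closely among 13306 genes were Amdhd1 (r = 0.91), Cyp2f2 (r = 0.89), Hsd17b13 (r = 0.88), Sds (r = 0.87) and Etnppl (r = 0.87). For Sds they were Gls2 (r = 0.93), Hsd17b13 (r = 0.91), Hal (r = 0.87), Sfxn1 (r = 0.87) and Etnppl (r = 0.86). These libraries include both genotypes, and much of the likeness lay between them. Within the 16 R&Zflox libraries the r of Hal was 0.43 with Amdhd1, -0.47 with Cyp2f2 and 0.15 with Sds, and within the 14 R&Zdel libraries 0.66, 0.43 and 0.65. Sds and Gls2, the glutaminase of periportal hepatocytes, kept r = 0.74 within each genotype. Hpd ran against Hal over all libraries (r = -0.74) and with it within R&Zflox (r = 0.57), while within R&Zdel r was 0.031. These livers shared their batch but differed in sex, time, damage and way of deletion, and the part of these in the likeness was not tested.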

How the data were processed

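Both batches were deposited as raw counts of reads per gene symbol, made by the authors from single 50-base Smart-Seq2 reads aligned to mm10 with STAR 2.5.0a. The submitters' processing notes name Trim Galore and featureCounts 1.5.0-p3 (first batch, per the file headers without strand) and 1.5.0-p1. The study's methods name another trimmer and another featureCounts version. Of 55 samples, 53 had counts, 2 labelled R&Zdel 3M samples were not analysed here, and 5 libraries whose labels gave conflicting groups entered no comparison. Symbols shared by both batches (34490) held 95.3% to 98.8% of the counts.

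Counts were fitted with edgeR 4.0.16 (R 4.3.3, TMM factors, quasi-likelihood test, Benjamini-Hochberg adjustment over all genes tested) in 4 fits. The undamaged fit had 25 libraries, genotype by time groups, sex and batch, and 12848 genes over 1 CPM in at least 3 libraries. The CD fit had 11 libraries, groups alone, and 11358 genes at 1 CPM or more in at least 6. The PHx fit had 20 libraries with the 1M livers, groups and sex, and 12773 genes. The first-batch fit of CCl4 against undamaged liver had 18 libraries, groups and sex, and 12608 genes. The fits and the rule for a call were tested on simulated data, for the genotype comparisons and for R&Zflox CD 170d against undamaged 7M. The other steps were not tested in this way. Likeness used log2(CPM + 1). Where the libraries of 2 groups are said not to overlap, the share of all genes without overlap is not given, and small groups separate easily. DESeq2 1.42.0, other scaling, filters, thresholds and samples, and each library left out were alternatives. Alternatives that place 2 of the conflicting libraries in a group were planned but not run, because such libraries enter no comparison.

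The members, the pathway and marker lists and the tests were chosen with earlier results of these data known. All 10 members are named, other pathway genes where called, and for Hal and Sds the 5 genes of highest r. Promoter windows were from RefSeq. A pair of genes of the pathway lists is not reported here. Where nothing says that replicates are separate animals, p-values measure only the spread between these samples, which may be technical.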

Additional observations from a re-analysis of the deposited data

Results flagged for a closer look

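In the R&Zflox 3M group, Sds of replicate 5 (second batch) was 45.9 CPM where the other 4 livers, from both batches, had 108 to 131 CPM. This gap was past Dixon's limit for 5 values. The group was the only one of 50 groups of member values so tested that passed, and chance alone gives about 2.5. Groups present in both batches were tested with the batches joined, although the counting differed between batches.

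Some members had a genotype difference that changed between CCl4 time points by the interaction test. From CD 4d to CD 50d this was Agxt, by 2.45 on the log2 scale. From CD 4d to CD 170d it was Agxt by 2.66, Sds by 2.37, Tdo2 by 2.10, Hpd by 1.55 and Ftcd by 1.40. The R&Zdel livers at CD 4d also had the highest cholangiocyte sums of the series, 3632 to 6473 CPM. The part of this in the interactions was not tested.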

How the results depend on the processing

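Counts of members called moved by over 1.5 times under some alternatives. At 3M (2 as reported) they were 5 with DESeq2, 1 in male mice alone and 0 with the compared groups alone or the first batch alone. At 7M (3) they were 5 without a fold threshold and 1 in the first batch alone. At CD 50d (4) DESeq2 size factors gave 2 and library totals 0. At CD 170d (1) library totals gave 2, no filter, DESeq2 and the likelihood ratio test gave 4 each, and the compared groups alone 0. Calls within a genotype after CCl4 (7) were 11 without a filter and 4 with library totals, and after PHx (0) they were 3 without a filter and 3 with DESeq2. In male mice alone the R&Zdel comparisons at CD 4d and CD 50d, which held all 7, could not be run. Interactions (6) were 11 with DESeq2. The cause was not tested. Leaving out each library in turn gave 4 to 5 at 1M, 0 to 3 at 3M, 3 to 5 at 7M, 7 to 8 at CD 4d, 0 to 1 at CD 50d, 0 to 2 at CD 170d, 4 to 5 at PHx 7d, 4 to 4 at PHx 21d, 4 to 8 within a genotype after CCl4, 0 to 1 after PHx (1 without R&Zdel PHx 7d replicate 2) and 0 to 11 for the interactions.

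The fit with the replicate number as a block gave 0 members at CD 50d and 3 at 3M, where Sds joined (log2 fold change -2.91, adjusted p = 0.0675). At CD 170d it called Uroc1 (-1.06, adjusted p = 0.0784) in place of Sdsl. Its counts at the other comparisons lay within 1.5 times of those reported. Same-numbered libraries had deviations with r from -0.37 to 0.42, over 0.1 in 4 of 20 pairs (2 at 7M and 2 at CD 4d), and in 4 pairs the R&Zdel library correlated best with its own number, so the numbers were not taken as pairs.

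Signs turned only for differences that were not called. With the block Tat, Tdo2 and Agxt at 3M were -0.31, -0.17 and 0.031, and Tat at 7M was -0.068. In male mice alone Tat and Tdo2 at 3M were -0.25 and -0.082 and Tat at 7M -0.064. With the compared groups alone these were -0.14, -0.092 and -0.022, and in the second batch alone -0.13, -0.084 and -0.19. Agxt in the first batch alone was 0.085 at 3M and -0.17 at 7M. With library totals Tdo2 at 1M was 0.083 and Uroc1 at CD 4d 0.18. Leaving out libraries gave ranges of -0.27 to 0.59 (Tat, 3M), -0.12 to 0.95 (Tdo2, 3M), -0.52 to 0.37 (Agxt, 3M), -0.47 to 0.27 (Tat, 7M), -0.12 to 0.31 (Agxt, 7M), -0.22 to 0.47 (Hpd, CD 50d), -0.35 to 0.59 (Agxt, CD 50d), -0.21 to 0.36 (Ftcd, CD 170d), -0.35 to 0.60 (Tdo2, CD 170d), -0.93 to 0.25 (Amdhd1, CD 170d), -0.91 to 0.11 (Tat, CD 170d) and -0.31 to 0.12 (Tdo2, PHx 7d).

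Counts over all genes moved as well. At 1M (56) they were 121 without a filter, 302 with DESeq2, 188 by the likelihood ratio test and 14 in males. At 3M (29) these were 73, 134, 60 and 12, with 0 for the compared groups alone and 5 in the first batch. At 7M (58) these were 95, 92, 88 and 38, with 21 for the compared groups alone, 22 in the second batch and 14 in the first. At CD 4d (1729) library totals gave 2965, no filter 2956, no fold threshold 3135 and the compared groups alone 2623. At CD 50d (634) library totals gave 224, no filter 1671, DESeq2 1044, the likelihood ratio test 1028, the compared groups alone 1250 and R&Zflox CD 170d libraries joined to CD 50d 1236. At CD 170d (71) no filter gave 600, DESeq2 291, the likelihood ratio test 276 and the compared groups alone 0. At PHx 7d (510) and PHx 21d (838) the adjusted threshold gave 35 and 42, and the compared groups alone 540 at PHx 21d. Within a genotype after CCl4 (4932) no filter gave 8854, and after PHx (5) males alone gave 15, no filter 301 and DESeq2 903. Males alone gave 644 after CCl4, without the R&Zdel comparisons at CD 4d and CD 50d, which could not be run. Interactions (1040) were 3324 with DESeq2.

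Sdsl had the fewest reads, and groups of 1 or 2 libraries at 3M and after CCl4 limit those comparisons. Alternatives that would place a library of conflicting labels in a group were not run.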

Other observations

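Labels conflicted on the group of 5 libraries of the first batch, which entered no comparison. Their Hal values were 43.9, 84.1, 85.4, 335 and 347 CPM and their Sds values, in the same order of libraries, 17.2, 33.8, 63.7, 384 and 285 CPM. Amdhd1 was 102, 145, 97.0, 239.7 and 262 CPM and Uroc1 122, 124, 126, 237 and 256 CPM. The libraries thus fell into 3 with low and 2 with high values of these 4 genes. Sdsl was 2.14, 6.08, 5.59, 18.2 and 13.2 CPM. Hpd ran from 3904 to 5380.0 CPM, Tat from 441 to 919.6, Tdo2 from 572 to 923, Agxt from 653 to 907 and Ftcd from 289.8 to 509 CPM.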
